A study of Mus musculus with 6 samples.

Results

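This is an account of 32 complement genes in mouse liver: starters of the classical and lectin pathways, components of the central convertases, the alternative and terminal pathways, regulators, and anaphylatoxin receptors. They were taken by gene name from a deposited expression table of 54532 genes, and all 32 names were found. RNA was sequenced from 3 control livers of the genotype Notch1fl/fl and from 3 livers labelled Hepatocyte Notch1 KO, all untreated. The label names hepatocytes as the target, and both groups are whole livers, so Notch1 RNA of other cells is also in the values. The Cre driver, sex and age were not given in the sources used here, nor was anything showing how the mice were related. The study asked how Notch1 bears on hepatic thrombopoietin production. Values are FPKM, a read level corrected for the length of the gene and for library size, and errors are SD over n = 3 livers unless marked SE.

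The recovered reads in genes ranged from 15612924 to 17511961 per library, and at this depth 3 reads on 1 kilobase of exon equal 0.150 to 0.201 FPKM. Notch1, the targeted gene, was at 0.618, 0.965 and 0.854 FPKM in controls 1 to 3 and at 0.301, 0.540 and 0.292 FPKM in knockouts 1 to 3, without overlap (log2 change -0.40, SE 0.13, adjusted p = 0.257). That change was fitted on log2(FPKM + 1), which understates the change of a gene this low. Hepatocyte markers were abundant in all 6 livers. Of the 10 markers, 9 had fitted changes below 0 (51.9% of all genes did), with a median log2 change of -0.24, and none passed. They summed to 48315 to 56452 FPKM in controls and to 34948 to 45274 FPKM in knockouts. Alb, which makes up most of each sum, stood at 29979 to 37515 FPKM in controls and at 20452 to 29087 FPKM in knockouts. These values are on the deposited scaling. Scaling to total reads instead would move controls 1 to 3 by -0.10, -0.08 and -0.02 (log2). It would move knockouts 1 to 3 by -0.07, 0.19 and 0.11. The part of the hepatocyte markers in the complement values was not tested. The knockout livers stood apart from one another. The median acute phase gene deviated from its control mean by 1.15, -0.41 and 0.87 (log2) in knockouts 1, 2 and 3, and the median male-biased liver gene by -0.04, -2.02 and -0.11. Mesothelial markers summed to 9.78 to 84.4 FPKM in controls and to 168 to 290 FPKM in knockouts.

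Complement is a cascade of plasma proteins that marks microbes and damaged cells. Antibody-bound C1q, or lectins bound to sugars, activate serine proteases that cut C4 and C2, and the alternative pathway amplifies the reaction on surfaces. All routes meet at C3, whose cleavage leads to C5 cleavage and to a pore of C5b, C6, C7, C8 and C9. Hepatocytes secrete most of these proteins, whereas C1q comes largely from macrophages. Soluble and membrane-bound regulators keep the cascade off host cells.

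Of the 32 genes, 31 passed the filter on low values (0.5 FPKM or more on average across livers), and Cfd did not. None of the 31 passed an adjusted p under 0.05 by limma, with adjusted p-values from 0.251 to 0.991. Over all 12022 genes tested, 3 passed, which is 0.025% (0.00832% higher and 0.0166% lower). At an unadjusted p under 0.05 there were 4 of the 31 genes (12.9%), against 13.9% of all genes (6.83% higher, 7.06% lower): C3 was higher, and Masp2, Cfp and Cd59a were lower in the knockouts. The groups did not overlap for 3 of the 31 genes (9.68%), against 19.8% of all genes (9.2% higher and 10.6% lower): C3 was higher in every knockout, and Masp1 and Masp2 were lower. The count of 4 is near the background, with 3 of 31 lower (9.68%, against 7.06%). The fitted log2 change was below 0 for 21 of 31 genes (67.7%, against 51.9% of all genes), for 13 with FPKM rescaled to total reads (41.9%, against 29.9%) and for 16 with quantile normalization (51.6%, against 53.2%). Its median over the genes was -0.10, beside -0.01 over all genes tested, and it lay at 0.06 without knockout 2 and at -0.26 without knockout 1. Rescaling to total reads, which moved the median of all genes to 0.10, moved that of the complement genes to 0.04. With the replicate number as a block, 8 of the 31 genes had an unadjusted p under 0.05, against 16.1% of all genes, and none passed the adjusted threshold (lowest adjusted p = 0.213, C8b). Without knockout 1 there were 10 such genes of the 31, against 15.4% of all genes. There were none without control 1 or without control 2, where all genes gave 9.62% and 10.9%. There were 3 without control 3 (12.0% of all genes), 4 without knockout 2 (12.4%) and 2 without knockout 3 (10.9%).

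**Figure D1:**
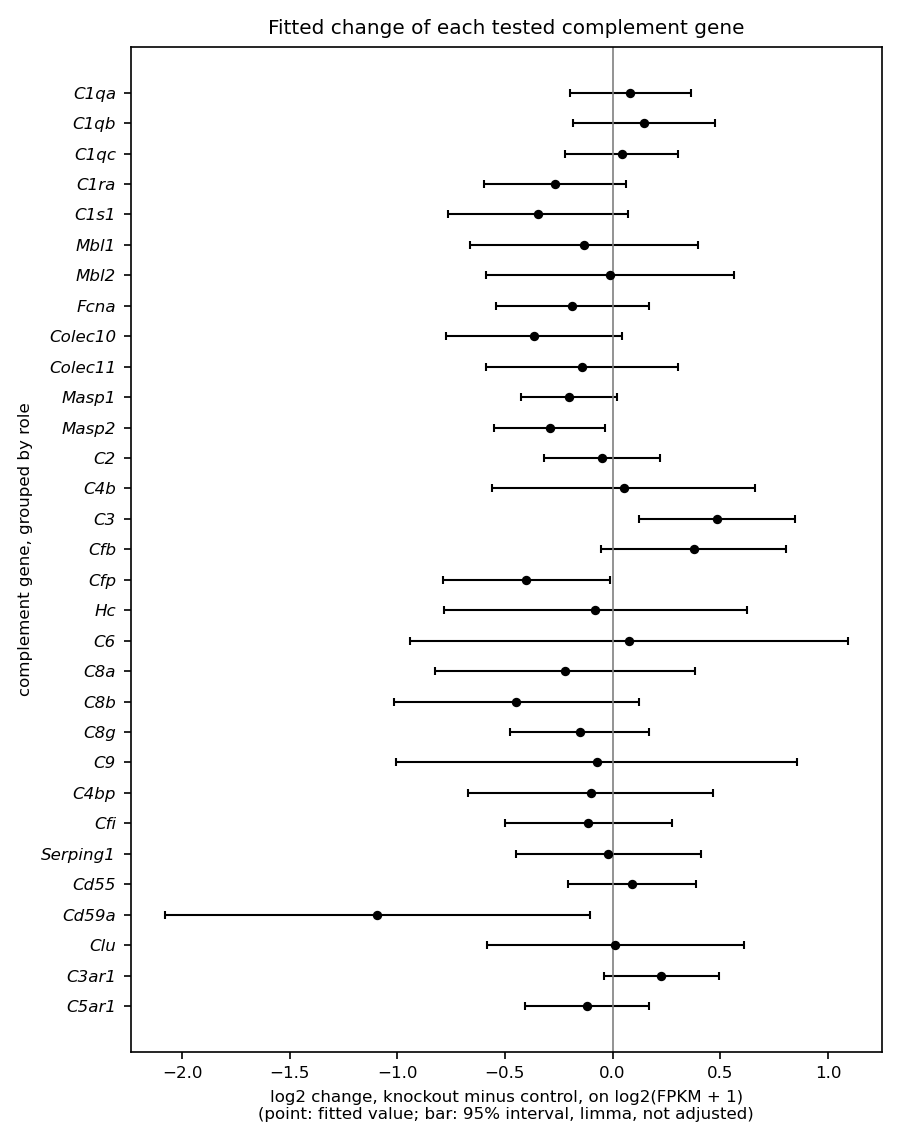
Fitted change of each tested complement gene, knockout minus control, on the log2(FPKM + 1) scale; points are fitted values and bars are unadjusted 95% intervals from limma. The intervals of C3, Masp2, Cfp and Cd59a leave out 0, and Cd59a has the largest fitted change at -1.09.

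C3, the component on which all pathways converge, had the highest level per gene length of the 32 genes (chr17:57203970-57228136, minus strand, GRCm38). Its FPKM was 856, 883 and 1065 in controls 1 to 3 and 1405, 1211 and 1299 in knockouts 1 to 3. All 3 knockouts stood above all 3 controls. The mean was 935 ± 113 FPKM in controls and 1305 ± 97.1 FPKM in knockouts (n = 3 each), a ratio of 1.40. The log2 change was 0.49 (SE 0.15, 95% interval 0.12 to 0.85), and the adjusted p of 0.251 missed the threshold, with a range of 0.193 to 0.547 over the alternatives. Fragments of C4 and C2 form the convertase of the classical and lectin pathways, and the groups overlapped for the genes of both. C4b was at 194, 141 and 190 FPKM in controls and at 232, 122 and 205 FPKM in knockouts (log2 change 0.05, SE 0.26). C2 stayed between 7.79 and 10.1 FPKM in the 6 livers (log2 change -0.05, SE 0.11). C4b has a near-identical neighbour, C4a, and the counting could split reads between them, so its level is uncertain.

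The promoter windows of 4 genes are shown: C3 and Masp2, whose groups did not overlap, C9, the pore-forming component with a wide spread among knockouts, and Cd59a, with the largest fitted change. Each window is the 250 bases before the RefSeq start (GRCm38.p6), read on the gene's strand, and capitals mark a match to a searched motif.
C3: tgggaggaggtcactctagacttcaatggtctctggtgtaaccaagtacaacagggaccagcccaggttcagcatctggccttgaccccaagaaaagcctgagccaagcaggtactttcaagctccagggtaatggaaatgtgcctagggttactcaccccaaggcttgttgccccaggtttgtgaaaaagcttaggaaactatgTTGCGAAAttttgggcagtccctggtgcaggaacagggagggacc
Masp2: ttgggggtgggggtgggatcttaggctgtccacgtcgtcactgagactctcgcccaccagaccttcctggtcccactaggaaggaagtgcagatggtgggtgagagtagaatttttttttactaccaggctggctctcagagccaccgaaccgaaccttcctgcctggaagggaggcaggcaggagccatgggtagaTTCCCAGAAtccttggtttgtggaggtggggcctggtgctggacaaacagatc
C9: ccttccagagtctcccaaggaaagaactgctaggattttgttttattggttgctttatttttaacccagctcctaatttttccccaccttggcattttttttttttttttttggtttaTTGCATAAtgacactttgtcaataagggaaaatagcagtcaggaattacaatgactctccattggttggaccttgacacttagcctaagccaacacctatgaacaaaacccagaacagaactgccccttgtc
Cd59a: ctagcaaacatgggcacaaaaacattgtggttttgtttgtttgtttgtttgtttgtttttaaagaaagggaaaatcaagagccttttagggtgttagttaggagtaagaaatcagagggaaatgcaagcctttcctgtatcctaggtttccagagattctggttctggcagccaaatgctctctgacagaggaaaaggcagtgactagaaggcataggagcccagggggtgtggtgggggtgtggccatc
The windows lie at chr17:57228137-57228386 (minus strand), chr4:148602294-148602543, chr15:6445096-6445345 and chr2:104095551-104095800 (plus strand). The C3 window holds TTGCGAAA, a C/EBP-type match, starting 45 bases before the start site. The C9 window holds the C/EBP-type match TTGCATAA at 132 bases before it, and the Masp2 window holds TTCCCAGAA, a STAT-type match, at 53 bases. No searched motif was found in the Cd59a window, and no printed window held matches to more than 1 motif. Windows were found for 23 of the 32 genes. A complement gene was counted when any of its windows matched, whereas the shares of all windows count each window, so the measures differ. On both strands, TTGCNNAA was in 3 of the 23 (C1s1, C3 and C9) and in 9.56% of all 32851 windows of that length. TTCNNNGAA was in 3 of the 23 (Colec11, Masp2 and C8a) and in 7.02% of all windows. An NF-kB-type motif (GGG, 2 free bases, TTTCC) was in C3ar1 and in 1.41% of all windows, and an HNF1-type motif (GTTAAT, 2 free bases, TTAA) was in Hc and in 0.131%. GTGGGAA, of the type bound by RBPJ, the DNA-binding partner of Notch, was in Colec11 and in 5.42%. CAAAGTCCA, of HNF4 type, was in none of the 23 and in 0.384% of all windows. These matches describe letters in a window only.

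In the alternative pathway, the genes were low or mixed. Properdin, encoded by Cfp on the X chromosome, stabilises the alternative convertase. It was at 24.9, 27.1 and 17.9 FPKM in controls and at 19.0, 16.7 and 15.8 FPKM in knockouts, and knockout 1 lay inside the control range (log2 change -0.40, SE 0.16, 95% interval -0.79 to -0.01, adjusted p = 0.344). Factor B, encoded by Cfb, supplies the protease of that convertase. Its level was 0.566, 0.597 and 0.959 FPKM in controls and 1.02, 1.84 and 0.870 FPKM in knockouts, from 24, 27 and 45 reads and 43, 104 and 42 reads (log2 change 0.38, SE 0.18, adjusted p = 0.415). The change was 0.70 with a pseudocount of 0.1, 0.79 with limma voom on recovered reads and 0.19 without knockout 2. The highest value was in knockout 2, which was the lowest of the 6 livers for 17 of the 31 genes (54.8%, against 24.3% of all genes). Of the exon bases of Cfb, 79.5% are shared on the same strand with the readthrough model Gm20547, which was listed at 0 in all 6 libraries, as are 42.8% of those of C2. The part of this overlap in the levels of Cfb and C2 was not tested. Factor D, encoded by Cfd and made mainly by adipocytes, had 0, 3 and 7 reads in controls and 5, 1 and 12 in knockouts, at or near the floor of 3 reads, so no fold is given. Of 8 adipocyte markers 4 were tested. The defining markers Adipoq, Plin1 and Retn were at 0 in all 3 controls and Lep in all 6 livers. In knockouts 1, 2 and 3, Adipoq had 1, 0 and 4 reads, Plin1 0, 0 and 2, and Retn 0, 0 and 5. The part of adipocyte RNA in the Cfd values was not tested. The adipocyte list summed to 1026 to 1362 FPKM in controls and 316 to 532 FPKM in knockouts, nearly all of it Car3, which hepatocytes also express.

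All 7 lectin pathway genes had fitted changes below 0 (51.9% of all genes did), against 5 with rescaling to total reads (29.9% of all genes), where Mbl1 and Mbl2 turned, and 6 with quantile normalization (53.2%), where Mbl2 did. Leaving out 1 liver turned the sign of Colec11, Mbl1 or Mbl2. In the lectin pathway, mannose-binding lectins, ficolin and collectins recognise sugars, and MASP proteases then cut C4 and C2. Masp2, which encodes the protease that cuts both (chr4:148602554-148615499, plus strand), was at 44.2, 40.9 and 40.6 FPKM in controls and at 38.5, 32.1 and 31.8 FPKM in knockouts. Every knockout lay below every control (log2 change -0.29, SE 0.11, 95% interval -0.55 to -0.03, adjusted p = 0.313). Of its exon bases, 54.9% are shared with Tardbp on the opposite strand. Tardbp was at 12.0, 10.2 and 10.5 FPKM in controls and at 11.6, 8.43 and 8.68 FPKM in knockouts, and its part in the Masp2 values was not tested. Masp1, which encodes the protease that activates MASP-2, was at 12.4, 11.3 and 11.6 FPKM in controls and at 11.0, 9.29 and 10.1 FPKM in knockouts, again without overlap (log2 change -0.20, SE 0.09, adjusted p = 0.399). The ratio of the Masp2 level to the Masp1 level was 3.56 ± 0.0666 in controls and 3.37 ± 0.191 in knockouts. With FPKM rescaled to total reads, the Masp1 groups overlapped and those of Masp2 did not, with log2 changes of -0.07 and -0.15.

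The recognition molecules were more mixed. Colec10, a collectin, was at 9.60, 11.6 and 8.002 FPKM in controls and at 8.72, 7.49 and 5.79 FPKM in knockouts, so that knockout 1 alone reached the control range (log2 change -0.37, SE 0.17, adjusted p = 0.406). Colec11, whose product pairs with that of Colec10, was at 27.8, 30.3 and 29.0 FPKM in controls and at 25.9, 34.6 and 19.8 FPKM in knockouts. Knockout 2 was above all controls for this gene. Ecm1, which is among the stellate cell markers, was at 35.5, 31.1 and 33.8 FPKM in controls and at 24.6, 33.2 and 20.7 FPKM in knockouts, and its part was not tested. The list as a whole did not have that order: 7 of the 12 stellate cell markers had fitted changes above 0 and 5 below, the median log2 change was 0.21, and the median deviations were -0.02, 0.33 and 0.25 in knockouts 1, 2 and 3. The summed level was 84.5 to 117 FPKM in controls and 93.4 to 130 FPKM in knockouts. Mbl1 was at 210, 214 and 175 FPKM in controls and at 242, 132 and 187 FPKM in knockouts (log2 change -0.13). Mbl2 was at 256, 465 and 311 FPKM in controls and at 374, 357 and 272 FPKM in knockouts (log2 change -0.01), and its widest spread was among the controls. The macrophage ficolin Fcna was at 32.4, 31.2 and 27.1 FPKM in controls and at 32.2, 22.3 and 25.6 FPKM in knockouts (log2 change -0.19).

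The plot of selected levels shows these genes by liver together with Cd59a and its paralog.

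**Figure D2:**
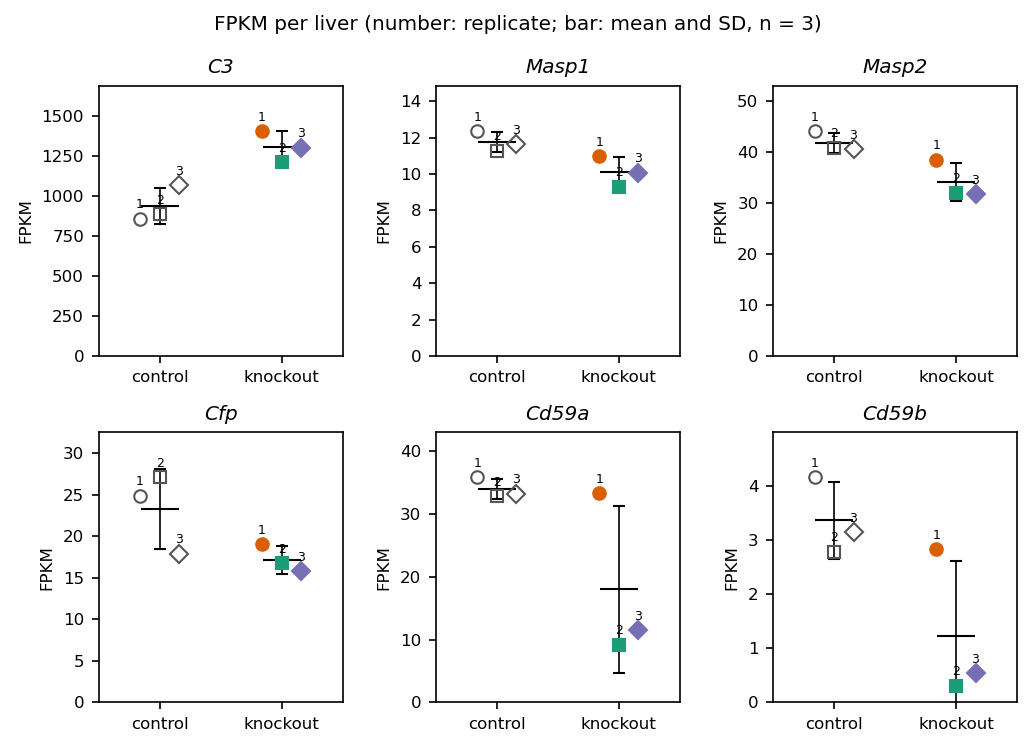
FPKM of C3, Masp1, Masp2, Cfp, Cd59a and Cd59b in each liver (numbered symbols), with the mean and SD of 3 livers per group. The groups are apart for C3, Masp1 and Masp2, while for Cd59a knockouts 2 and 3 lie at 9.23 and 11.5 FPKM and knockout 1 lies at 33.3 FPKM among the controls.

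In the classical pathway, the fitted changes of the C1q chains were above 0 and those of the proteases they carry were below 0, under rescaling to total reads and quantile normalization too. C1qa, C1qb and C1qc encode the 3 chains of C1q and lie side by side on chromosome 4. C1qa was at 59.98, 68.5 and 60.1 FPKM in controls and at 73.5, 59.0 and 67.7 FPKM in knockouts. C1qb was at 72.5, 70.1 and 59.3 FPKM and at 85.1, 64.1 and 75.2 FPKM. C1qc was at 31.7, 31.8 and 27.3 FPKM and at 34.2, 28.6 and 30.9 FPKM. For all 3 chains knockout 1 was above every control, and the log2 changes were 0.08, 0.15 and 0.04. The chains kept near-constant ratios of level: C1qb over C1qa was 1.07 ± 0.119 in controls and 1.12 ± 0.0356 in knockouts, and C1qa over C1qc was 2.08 ± 0.165 and 2.13 ± 0.0668. Kupffer cell and macrophage markers (12 of 12 tested, none passing) summed to 249 to 332 FPKM in controls and 269 to 329 FPKM in knockouts. The markers were mixed in direction, with 6 fitted changes above 0 and 6 below. The part of these markers in the C1q levels was not tested. In whole liver, fewer cells of a type and less RNA per cell cannot be told apart. With rescaling to total reads, all 3 chains were higher in every knockout than in every control.

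C1ra and C1s1 encode the proteases that C1q activates. C1ra was at 90.7, 79.2 and 84.9 FPKM in controls and at 80.5, 58.7 and 73.5 FPKM in knockouts (log2 change -0.27, SE 0.14, adjusted p = 0.449). C1s1 was at 103, 86.7 and 96.4 FPKM in controls and at 92.8, 58.4 and 76.3 FPKM in knockouts (log2 change -0.35, SE 0.18, adjusted p = 0.436). For both, knockouts 2 and 3 lay below all controls and knockout 1 did not. The ratio of C1s1 to C1ra was 1.12 ± 0.0226 in controls and 1.06 ± 0.0817 in knockouts. Both have near-identical copies, C1rb and C1s2, that were not tested, so reads could be split between them.

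The terminal pathway genes spread widely between knockout livers. In the median terminal gene, the highest knockout was 2.15 times the lowest. That ratio was 1.46 over the 31 complement genes and 1.32 over all genes tested. Between controls the same 3 ratios were 1.43, 1.22 and 1.27. The acute phase and male-biased lists spread more between knockouts, with median ratios of 2.67 and 3.79. Hc, which encodes C5, was at 139, 100.96 and 115 FPKM in controls and at 154, 68.6 and 130 FPKM in knockouts. C6, which binds C5b, was at 63.0, 38.7 and 48.3 FPKM and at 84.4, 25.1 and 65.0 FPKM. C9, which polymerises into the pore, was at 507, 338 and 324 FPKM and at 580, 198 and 416 FPKM. In these 3 genes knockout 1 was above all controls and knockout 2 below all controls, and the log2 changes were -0.08, 0.08 and -0.07. The highest knockout was 3.37 times the lowest for C6 and 2.93 times for C9, against 1.63 and 1.56 among the controls. The ratio of the C9 level to the C6 level was 7.83 ± 1.03 in controls and 7.05 ± 0.762 in knockouts.

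C8 is a complex of 3 chains. C8a was at 243, 213 and 210 FPKM in controls and at 263, 127 and 204 FPKM in knockouts (log2 change -0.22). C8b was at 315, 223 and 214 FPKM and at 242, 139 and 177 FPKM (log2 change -0.45, SE 0.24, adjusted p = 0.460). C8g was at 305, 291 and 256 FPKM and at 290, 246 and 231 FPKM (log2 change -0.15). C8g had the narrowest range of the chains, and the ratio of C8g to C8a was 1.94 in knockout 2 and between 1.10 and 1.37 in the other 5 livers. Over the 6 terminal genes the median deviation from the control mean was 0.32, -0.81 and 0.00 (log2) in knockouts 1, 2 and 3.

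**Figure D3:**
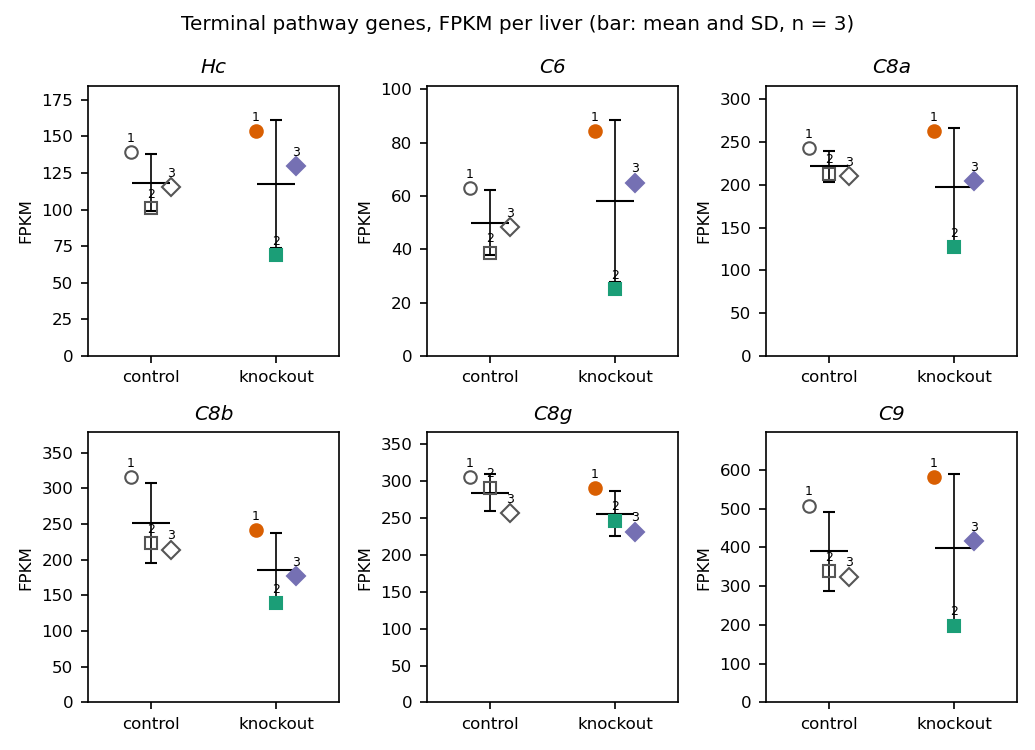
FPKM of Hc, C6, C8a, C8b, C8g and C9 in each liver (numbered symbols), with the mean and SD of 3 livers per group. Knockout 2 has the lowest value of the 6 livers for Hc, C6, C8a, C8b and C9, and knockout 1 the highest for Hc, C6, C8a and C9.

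Among the regulators, Cd59a had the largest fitted change of the 31 genes tested. Cd59a encodes a membrane-anchored inhibitor of C9 assembly (chr2:104095801-104115354, plus strand). It was at 35.8, 32.9 and 33.2 FPKM in controls and at 33.3, 9.23 and 11.5 FPKM in knockouts. Knockout 1 lay inside the control range, while the control mean was 3.68 times the value in knockout 2 and 2.95 times that in knockout 3. The means were 34.0 ± 1.63 FPKM in controls and 18.03 ± 13.3 FPKM in knockouts (log2 change -1.09, SE 0.42, 95% interval -2.08 to -0.11, adjusted p = 0.320). Without knockout 1 the change was -1.63 with an adjusted p of 0.0516, the lowest of any of the genes over the alternatives, and the adjusted p ranged up to 0.563. Its paralog Cd59b lies beside it and had the same order among knockouts: 4.15, 2.79 and 3.15 FPKM in controls and 2.83, 0.307 and 0.540 FPKM in knockouts, from 81, 58 and 68 reads and 55, 8 and 12 reads (log2 change -1.13, adjusted p = 0.279). Reads of the paralogs could have been split by the counting. Within 1 Mb on each side of Cd59a, apart from Cd59b, 3 of the 14 other tested genes had an unadjusted p under 0.05 (21.4%, against 13.9% of all genes) and none passed. These were Cat, Abtb2 and Fbxo3, all lower without overlap, with ratios of knockout to control mean of 0.732, 0.774 and 0.852. None of the 14 had both knockouts 2 and 3 under 0.5 times its control mean, a limit chosen after the Cd59a values were seen.

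The soluble regulators had the liver order of Hc, C6 and C9. C4bp, which holds C4b in check, was at 85.0, 87.1 and 75.3 FPKM in controls and at 107, 53.1 and 79.1 FPKM in knockouts. Cfi, the protease that inactivates C3b and C4b, was at 287, 274 and 254 FPKM and at 313, 214 and 236 FPKM. Serping1, the C1 inhibitor, was at 329, 254 and 300 FPKM and at 336, 230 and 310 FPKM. Clu, clusterin, was at 400, 306 and 342 FPKM and at 445, 237 and 407 FPKM. All 4 had knockout 1 above all controls and knockout 2 below all controls, with log2 changes of -0.10, -0.11, -0.02 and 0.01. Cd55, a membrane regulator that speeds convertase decay, did not share this order: 3.19, 2.82 and 2.10 FPKM in controls and 2.87, 2.89 and 2.98 FPKM in knockouts (log2 change 0.09).

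The anaphylatoxin receptors, carried mainly by myeloid cells, were low, with 44 to 92 reads per library for C3ar1 and 18 to 39 for C5ar1. C3ar1, the C3a receptor, was at 0.681, 0.827 and 0.713 FPKM in controls and at 1.06, 0.823 and 1.25 FPKM in knockouts (log2 change 0.23, SE 0.11, adjusted p = 0.428), and limma voom on recovered reads gave 0.45. C5ar1, the C5a receptor, was at 0.596, 0.534 and 0.913 FPKM and at 0.468, 0.524 and 0.637 FPKM (log2 change -0.12, SE 0.12, adjusted p = 0.722). Monocyte and neutrophil markers, 5 of 11 tested, summed to 16.6 to 25.5 FPKM in controls and 22.3 to 50.2 FPKM in knockouts, and their part in the receptor levels was not tested.

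Many of the genes shared an order among the knockout livers. Knockout 1 was above all controls for 16 of 31 genes (51.6%, against 26.7% of all genes), and knockout 2 was below all controls for 22 (71.0%, against 34.9%). Knockout 3 was below all controls for 13 (41.9%, against 30.1%). Knockout 1 above knockout 3 above knockout 2 was the order of 20 of the 31 genes (64.5%, against 20.1%), C3 among them. Knockouts 2 and 3 but not knockout 1 were below all controls for 10 genes (32.3%, against 7.66%), C1ra, C1s1, Fcna, Colec10, Cfp, C8a, C8b, C8g, Cfi and Cd59a. A ratio of at least 2 between the highest and lowest knockout was found for 7 genes (22.6%, against 12.9%), Cfb, Hc, C6, C8a, C9, C4bp and Cd59a, and for none between the controls (against 11.9%). Scaling to total reads raises every gene in knockout 2 by 0.19 on the log2 scale. On that scale the counts were 17 of 31 above all controls in knockout 1 (26.1% of all genes) and 15 below all controls in knockout 2 (15.1% of all genes), with 8 below in knockout 3 (15.3% of all genes) and 6 without overlap between groups (20.3% of all genes). The order 1, 3, 2 then held for 12 genes (7.71% of all genes), and knockouts 2 and 3 alone were below for 3 (1.95% of all genes), C1s1, C8b and Cd59a.

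**Figure D4:**
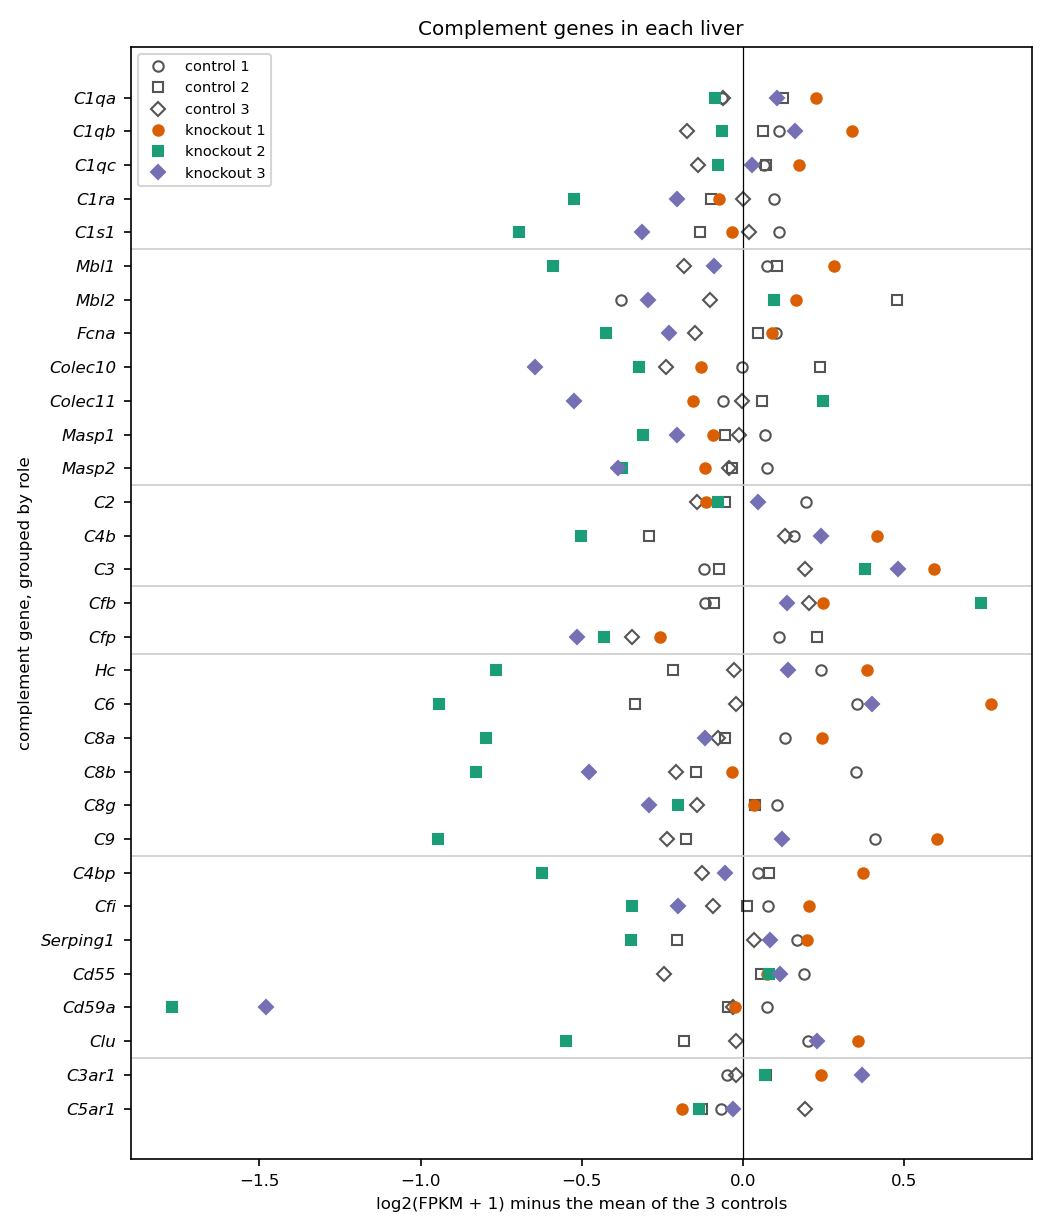
Level of each tested complement gene in each liver, as the log2 difference from its mean over the 3 controls, with genes grouped by role. Knockout 2 is low for most terminal and regulator genes, and Cd59a is far below the control mean in knockouts 2 and 3.

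Other lists moved across the same livers. Beside the acute phase values given above, the 31 complement genes had median deviations of 0.17, -0.35 and -0.06 (log2) in knockouts 1, 2 and 3. Hp, haptoglobin, was at 1452, 1246 and 1315 FPKM in controls and at 3721, 1292 and 3723 FPKM in knockouts. The order knockout 1, 3, 2 held for 11 of the 20 acute phase genes (20.1% of all genes had it), Hp not among them. Mup7, a male-biased urinary protein gene, was at 10326, 3324 and 6862 FPKM in controls and at 12752, 260 and 10159 FPKM in knockouts. Cebpa, which encodes a C/EBP factor, was at 184, 148 and 156 FPKM in controls and at 121, 108 and 91.6 FPKM in knockouts. Its list, of IL-6 and IL-1 signalling and C/EBP genes, did not share that direction. Of the 12 genes tested, 8 had fitted changes above 0 and 4 below, with a median of 0.095. Cebpb, another C/EBP gene, was at 56.0, 88.8 and 103 FPKM in controls and at 68.4, 58.4 and 103 FPKM in knockouts (log2 change -0.10). Of the 10 mesothelial markers 9 were tested, with median deviations of 1.84, 2.63 and 2.56. All 9 were higher at an unadjusted p under 0.05 (6.83% of all genes were), 8 of them without overlap (9.2% of all genes), and none passed. Whether any of these lists has a part in the complement values was not tested.

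**Figure D5:**
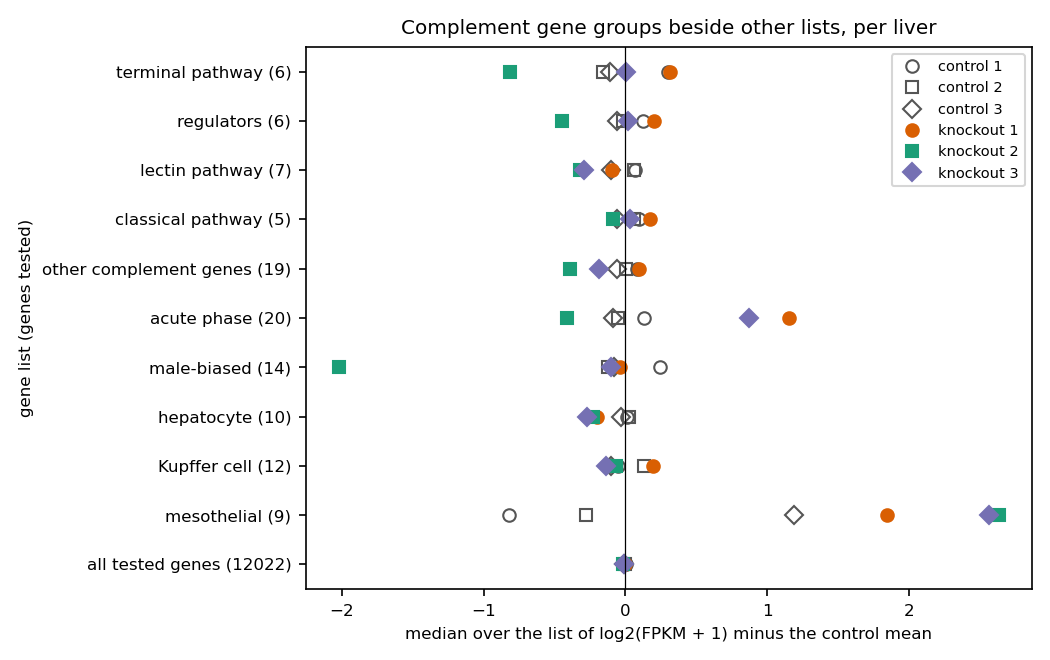
Median log2 deviation from the control mean in each liver for the complement roles and for the response and marker lists. Among the complement roles, the terminal genes reach -0.81 in knockout 2, where the male-biased list reaches -2.02.

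Beyond the 32 genes, 28 further complement genes were listed, of which 19 were tested. Fitted changes were above 0 for 3 (Cd93, C1qbp and Itgb2) and below 0 for 16 (84.2%, against 51.9% of all genes), and for 10 with rescaling to total reads (52.6%, against 29.9%). The median log2 change was -0.13. None passed, and 2 had an unadjusted p under 0.05 (10.5%, against 13.9% of all genes), Cd59b and Colec12. Colec12, a scavenger receptor collectin, was at 11.7, 12.4 and 13.3 FPKM in controls and at 11.2, 9.26 and 10.7 FPKM in knockouts, without overlap (log2 change -0.25, adjusted p = 0.350). Cfhr3, annotated as an unprocessed pseudogene, had a log2 change of -0.29 (adjusted p = 0.390). C1rb, C1s2, C7, Fcnb, Cd46, Cr2, Cd55b, Itgam and Itgax were below the filter, and Cd55b was at 0 in all 6 libraries.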

How the data were processed

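RNA-seq of 6 mouse livers was analysed, 3 per group. Per the submitters' processing notes, HISAT2 2.0.5, featureCounts 1.5.0-p3 and the build GRCm38 were used, and the sources used here give neither their settings nor whether strand was used. The authors deposited FPKM for 54532 genes; knockout columns match the sample titles, and the NC columns, which no label names, were taken as the controls because no other group remained, numbered as in the column name, with 0 columns unassigned. In each library, FPKM multiplied by gene length gave whole steps (within 0.1 read), from which the reads quoted were recovered, and the median-ratio scaling between libraries was already in the deposited FPKM. The 12022 genes averaging 0.5 FPKM or more entered limma 3.58.1 on R 4.3.3 (lmFit, eBayes with trend), on the log2(FPKM + 1) scale, two-sided, Benjamini-Hochberg over all genes, threshold 0.05. A log2 change on this scale understates the change of low genes. P-values weigh a group difference against the spread among these livers only, moderated over all genes tested. The script was tested on simulated data.

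The members and lists were chosen with earlier results of these data known. Named were all 32 genes, up to 4 other complement genes per direction by p, up to 4 genes per marker or response list by mean FPKM, and Notch1; 1 gene that this rule names is not reported here. Tardbp, Gm20547, C4a, Cat, Abtb2, Fbxo3 and the adipocyte markers at 0 were named after their values were seen. Motifs were chosen after the data were seen, and promoter windows come from RefSeq (GRCm38.p6). No window was found for Cfb, C1qa, Colec10, Masp1, Serping1, C4b, Clu, C2 and Cfi. Exon overlaps were taken from GENCODE M21. Deviations of same-numbered controls and knockouts from their group means correlated at 0.31, 0.16 and 0.10, and those of different numbers at -0.25 to 0.11; the pairing rests on these values, since the labels name no shared litter, batch or day. There were 13 alternatives: pseudocount 0.1, no filter, a filter at 1 FPKM, scaling to total reads, quantile normalization, limma voom on recovered reads, the replicate block, and leaving out each of 6 livers. Per-liver counts under total-read scaling and without each control were added after seeing the data.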

Additional observations from a re-analysis of the deposited data

How the results depend on the processing

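No complement gene passed the adjusted threshold in any of the 13 alternatives, where the lowest adjusted p was 0.0516 (Cd59a without knockout 1). The replicate block changed no call. The log2 change kept its sign in all 13 alternatives for 13 genes, and in the 12 that could be run for Cfb, C3ar1 and C5ar1, which a filter at 1 FPKM removes; it changed sign in at least 1 for 15. With scaling to total reads the changes that turned sign were 0.069 for C9, 0.13 for Mbl2, 0.12 for Serping1, 0.029 for Cfi, 0.010 for Mbl1, 0.062 for Hc, 0.039 for C4bp and 0.080 for C2. With quantile normalization they were 0.049 for C9, 0.071 for Mbl2, 0.095 for Serping1, 0.020 for Hc and 0.0084 for C4bp. Leaving out 1 liver gave ranges of -0.028 to 0.10 for C1qc, -0.12 to 0.049 for C2, -0.13 to 0.33 for C4b, -0.34 to 0.16 for C4bp, -0.27 to 0.59 for C6, -0.46 to 0.065 for C8a, -0.41 to 0.36 for C9, -0.032 to 0.19 for Cd55, -0.27 to 0.0020 for Cfi, -0.16 to 0.29 for Clu, -0.34 to 0.047 for Colec11, -0.31 to 0.26 for Hc, -0.34 to 0.10 for Mbl1, -0.20 to 0.23 for Mbl2 and -0.13 to 0.14 for Serping1.

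With scaling to total reads, 8 genes were below all controls in knockout 3, 3 in knockouts 2 and 3 but not 1, 12 were in the order 1, 3, 2, and 6 had groups that did not overlap. Leaving out 1 control gave 4 to 7 genes whose groups did not overlap (4 without control 1, 6 without control 2 and 7 without control 3), where 28.0%, 30.2% and 30.5% of all genes did not overlap. These comparisons of per-liver positions were chosen after seeing the data, and the cause of each difference was not tested. Arms of 2 livers were fitted with the spread pooled over both groups. The number of livers, 3 per group, limits the precision of every value, and few reads limit those of Cfb, Cfd, C5ar1 and C3ar1.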
